A study of Rattus norvegicus with 6 samples.

Results

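The 10 genes described here mark retinal ganglion cells or build the skeleton of their axons, and they were chosen by name: Rbpms, Pou4f1, Pou4f2, Pou4f3, Sncg, Thy1, Nefl, Nefm, Nefh and Opn4. All 10 were measured, each by 1 probe row that carried its symbol alone, among 18166 genes tested. The arrays were Affymetrix Rat Gene 2.0 ST arrays, hybridized with biotin-labelled cDNA from rat retina. The HCDDP group were male SD (Sprague-Dawley) rats that entered at 5 weeks of age, ate a high fat diet for 4 weeks, received streptozotocin at 30 mg/kg to induce diabetes, and were then dosed through a gastric tube with CDDP, 0.4 g/kg daily, over 12 weeks. CDDP stands for Compound Danshen Dripping Pill, which also holds notoginseng and borneol, and HCDDP for its high dose, and the labels call the treatment Danshen without a dose. The diabetic group had the same diet and streptozotocin and received saline in place of CDDP. Each group had 3 arrays, and the series holds no array of rats without diabetes. The labels give an age of 17 weeks for both groups, which is less than the sum of the ages and times in the methods. The study's sample size for the arrays equals their number, and elsewhere its sample sizes count rats, but neither the labels nor the methods say outright that each array came from its own animal. If they did not, the p-values cover technical spread alone. Values listed for a group are in the order of its arrays 1, 2 and 3. These numbers come from the labels, and no source states that they pair arrays of the groups.

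Ganglion cells are the output neurons of the retina, and their axons form the optic nerve. Rbpms, an RNA-binding protein, marks ganglion cells of nearly all types in the rodent retina. Pou4f1, Pou4f2 and Pou4f3 are the Brn3 transcription factors that direct their development and survival. Sncg (gamma-synuclein) and Thy1, a surface glycoprotein, are abundant in them, and Opn4 encodes melanopsin, the photopigment of the small class of ganglion cells that sense light by themselves. Nefl, Nefm and Nefh encode the light, medium and heavy neurofilament subunits, which assemble together into the filaments that set the calibre of large axons. None of the 10 is private to ganglion cells: Thy1 is also found on thymocytes, neurofilaments occur in other neurons with long axons, and Pou4f3 is best known from the hair cells of the ear.

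The start regions of these genes differed in base composition, and the windows of a Brn3 factor and of a pair of genes typical of mature ganglion cells are shown to make that visible. RefSeq windows on GRCr8, from 250 bases before to 50 after the start, were matched for 5 of the 10 genes, namely Pou4f1, Pou4f2, Pou4f3, Sncg and Opn4. Capitals mark the dinucleotide CG, and each window is written 5′ to 3′ on the strand of its gene. The windows lie at chr15:87674594-87674893 on the minus strand for Pou4f1, at chr16:9711287-9711586 on the minus strand for Sncg, and at chr16:9935761-9936060 on the minus strand for Opn4.
Pou4f1: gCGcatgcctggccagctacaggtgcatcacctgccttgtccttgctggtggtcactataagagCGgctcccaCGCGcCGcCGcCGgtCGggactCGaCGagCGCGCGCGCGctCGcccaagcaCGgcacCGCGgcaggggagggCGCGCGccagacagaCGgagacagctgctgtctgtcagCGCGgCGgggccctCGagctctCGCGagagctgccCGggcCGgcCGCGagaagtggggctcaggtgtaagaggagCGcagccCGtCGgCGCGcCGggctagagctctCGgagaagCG
Sncg: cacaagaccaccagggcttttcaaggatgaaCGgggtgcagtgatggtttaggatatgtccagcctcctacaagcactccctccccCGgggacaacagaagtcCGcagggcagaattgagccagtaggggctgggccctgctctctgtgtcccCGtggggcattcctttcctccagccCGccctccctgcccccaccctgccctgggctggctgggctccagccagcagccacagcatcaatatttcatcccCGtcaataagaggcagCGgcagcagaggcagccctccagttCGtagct
Opn4: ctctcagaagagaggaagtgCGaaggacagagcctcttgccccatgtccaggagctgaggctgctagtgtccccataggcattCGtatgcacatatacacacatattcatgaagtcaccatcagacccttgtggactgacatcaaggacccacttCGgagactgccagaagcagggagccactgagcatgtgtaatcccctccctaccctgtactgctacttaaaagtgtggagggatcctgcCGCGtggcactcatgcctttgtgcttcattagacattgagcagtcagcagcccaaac
The Pou4f1 window held 41 CG, a number reached by 2.8% of the 33469 windows in the table. Pou4f3 held 25 and Pou4f2 held 18, which 16.6% and 27.5% of windows reached. Sncg held 8 and Opn4 held 5, close to the median of 7. The letters TAAT, the core of many homeodomain sites, were looked for on both strands. They stood at 2 places in the Opn4 window and at 0 in the other 4, while 60.6% of all windows held them. Sncg and Opn4 lie near each other on chromosome 16, with 3 protein-coding genes between them in RefSeq, and Nefl and Nefm lie side by side on chromosome 15 with only a pseudogene entry between them.

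None of the 10 genes passed the study's threshold in the HCDDP group, and 9 of the 10 had a mean below that of the diabetic group. That threshold asks for a fold change over 1.5 and an unadjusted p under 0.05. Applied here to limma, it was passed by 3.2% of all genes tested, so 0 of 10 lies close to what all genes give. The log2 differences, HCDDP minus diabetic, ran from −0.35 for Rbpms to 0.20 for Pou4f3, with a median of −0.20 against −0.01 over all genes tested. Of all genes, 51.6% lay below 0. Among genes above the median signal, which held 6 of the 10, 59% did, with a median of −0.05. The count past the threshold was also 0 by the methods' t-test, which 1.08% of all genes passed. No member had an unadjusted p under 0.05 by either test, where 6.05% of all genes had one by limma and 5.12% by the methods' t-test. No member passed an adjusted p under 0.05, a call made for 0.0055% of all genes by limma and for 0 genes by the methods' t-test. The arrays of the groups overlapped for every member, while they did not overlap for 10.7% of all genes. A p that misses the threshold does not show that the groups were alike. The 95% interval of the difference stayed within a fold change of 1.5 in either direction, or 0.585 on the log2 scale, for Pou4f1 and Sncg, and it reached past that bound for the other 8. Retinal RNA was measured in bulk, so fewer ganglion cells and less RNA per cell cannot be told apart.

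**Figure D1:**
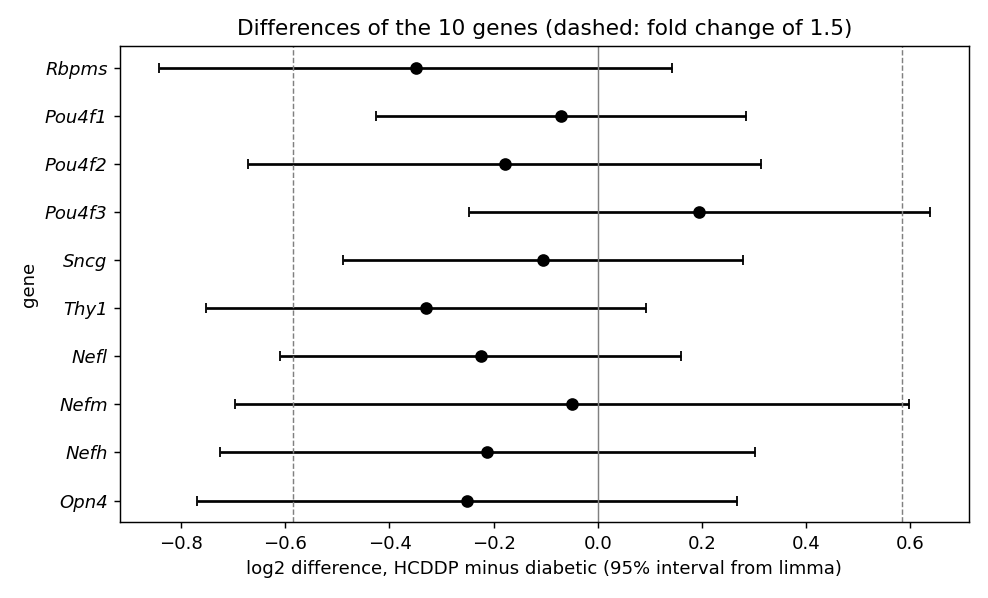
Log2 difference (HCDDP minus diabetic, horizontal axis) of each of the 10 genes (vertical axis), with points for the estimate and bars for its 95% interval from limma on 3 arrays a group. All 10 intervals cross 0, and those of Pou4f1 and Sncg lie between the dashed lines at a fold change of 1.5.

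Rbpms, the broadest marker of ganglion cells, had the largest difference of the 10. Its log2 signal was 6.95, 7.07 and 6.56 in the HCDDP arrays, and 7.50, 7.22 and 6.91 in the diabetic arrays. The highest value of the HCDDP group lay above the lowest of the diabetic group, so the groups overlapped. The HCDDP mean was 6.86 ± 0.27 and the diabetic mean was 7.21 ± 0.29 (SD, n = 3 each). The log2 difference was −0.35 with a standard error of 0.22 and a 95% interval from −0.84 to 0.14 (adjusted p = 0.784 from limma, exact permutation p = 0.3). Between arrays of the same number, which are not known to be paired, Rbpms was lower in the HCDDP array each time, by −0.54, −0.16 and −0.35. The size of the difference rested in part on single arrays: leaving out HCDDP array 3 made it −0.20, leaving out diabetic array 1 made it −0.21, and it grew to −0.50 when diabetic array 3 was left out.

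Of the Brn3 factors, Pou4f1 and Pou4f2 had a lower and Pou4f3 a higher mean in the HCDDP group. Pou4f1 was at 5.60, 5.81 and 5.80 in the HCDDP arrays and at 5.87, 5.79 and 5.75 in the diabetic arrays, so that 5 of the 6 values lay within a narrow band and HCDDP array 1 alone lay lower. Its log2 difference of −0.07 (standard error 0.16) had a 95% interval from −0.43 to 0.28. Leaving out HCDDP array 1 gave −0.0010, diabetic array 1 gave −0.04 and HCDDP array 2 gave −0.11. Pou4f2, the factor most closely tied to ganglion cell differentiation, was at 5.36, 5.24 and 5.91 in the HCDDP arrays and at 5.48, 5.75 and 5.81 in the diabetic arrays. HCDDP array 3 was the highest of all 6 and HCDDP array 2 the lowest, so the spread within the HCDDP group (SD 0.36) exceeded the difference of −0.18 (standard error 0.22). That difference was −0.05 without HCDDP array 2 and −0.38 without HCDDP array 3, and leaving out HCDDP array 1 gave −0.11, diabetic array 1 −0.28 and diabetic array 3 −0.12. Pou4f3 was at 4.92, 4.98 and 5.19 in the HCDDP arrays and at 4.61, 4.75 and 5.15 in the diabetic arrays, the highest value of each group being in its array 3. It was the only member with a higher mean in the HCDDP group, by 0.20 (standard error 0.19). It was higher in the HCDDP array of each number, by 0.31, 0.23 and 0.04. The Pou4f3 difference was 0.08 when diabetic array 1 was left out, 0.11 when HCDDP array 3 was, and 0.35 when diabetic array 3 was. Pou4f3 also had the weakest signal of the members, with a mean of 4.93 at percentile 26.8 of all genes. Pou4f2 lay at percentile 37.8 and Pou4f1 at 40.9. The part of weak signal in the direction of Pou4f3 was not tested. The exact permutation p was 0.6 for Pou4f1, 0.5 for Pou4f2 and 0.4 for Pou4f3.

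Thy1 and Sncg, which are abundant in ganglion cells, differed in how far apart the groups lay. Thy1 was at 9.07, 8.93 and 8.92 in the HCDDP arrays and at 9.54, 9.37 and 9.01 in the diabetic arrays. The 3 HCDDP values were close together (SD 0.08, n = 3), while the diabetic values were spread (SD 0.27, n = 3), and diabetic array 3 lay below HCDDP array 1. The log2 difference was −0.33 with a standard error of 0.18 and a 95% interval from −0.75 to 0.09 (adjusted p = 0.782 from limma, exact permutation p = 0.2). Thy1 had the smallest unadjusted p of the 10, at 0.110 by limma. Without diabetic array 1, the highest of the 6, its difference was −0.21. Sncg was at 8.68, 8.78 and 8.42 in the HCDDP arrays and at 8.84, 8.65 and 8.70 in the diabetic arrays. HCDDP array 2 exceeded 2 of the diabetic arrays, and the difference was −0.11 (standard error 0.17), with a 95% interval from −0.49 to 0.28. Leaving out HCDDP array 3 brought the Sncg difference to −0.0037, diabetic array 1 to −0.05 and HCDDP array 2 to −0.18, and it turned to 0.017 after quantile normalization. Markers of T cells were looked at beside Thy1. Of 8 measured, 4 were above 0 and 4 below, with a median difference of 0.0087. Only Cd4, which in the rat is also carried by macrophages, passed the study's threshold, at −0.79 (adjusted p = 0.782 from limma). Cd2 and Cd3e, surface proteins of T cells, had 0.35 and 0.25, while Cd3g and Cd3d had −0.16 and −0.05. The mean signals of Cd2 and Cd3e, 4.07 and 3.73, lay at percentiles 14.6 and 11.1 of all genes, too weak to read as T cells. Those of Cd3g and Cd3d were 3.83 and 3.99. The summed linear signal was 322 to 378 in the HCDDP arrays and 392 to 475 in the diabetic arrays with Cd4, and 186 to 208 against 167 to 209 for the other 7 markers. The part of Cd4-bearing cells in the Thy1 values was not tested.

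**Figure D2:**
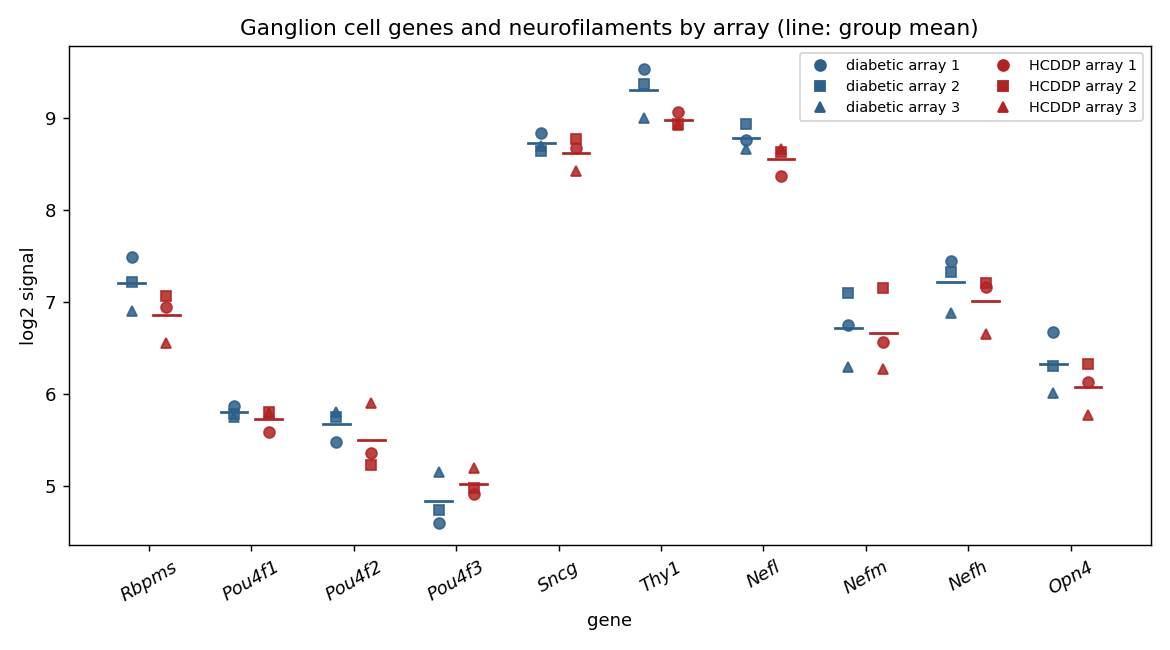
Log2 signal (vertical axis) of the 10 genes (horizontal axis) in each array, with diabetic arrays in blue on the left and HCDDP arrays in red on the right of each gene, symbols for the array number and lines for the group means. The groups overlap for every gene, and the triangles of arrays numbered 3 sit lowest in both groups for Rbpms, Thy1, Nefm, Nefh and Opn4.

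The neurofilament subunits had slightly lower means in the HCDDP group, and none passed the test. Nefl was at 8.38, 8.64 and 8.67 in the HCDDP arrays and at 8.76, 8.93 and 8.66 in the diabetic arrays. HCDDP array 3 lay marginally above diabetic array 3, which alone made the groups overlap. Its log2 difference was −0.22 (standard error 0.17) with a 95% interval from −0.61 to 0.16 (exact permutation p = 0.2), and it was −0.13 without HCDDP array 1. Nefm was at 6.57, 7.16 and 6.27 in the HCDDP arrays and at 6.75, 7.10 and 6.29 in the diabetic arrays. Arrays of the same number lay close together for Nefm while arrays of the same group did not: the SD was 0.45 in the HCDDP group and 0.41 in the diabetic group, and the differences within numbers were −0.18, 0.05 and −0.02. The difference of −0.05 (standard error 0.28) was 0.15 without HCDDP array 3, 0.14 without diabetic array 2 and 0.0064 after quantile normalization, against −0.29 when HCDDP array 2 and −0.26 when diabetic array 3 was left out, so its direction was not settled. Nefh was at 7.16, 7.21 and 6.66 in the HCDDP arrays and at 7.45, 7.33 and 6.88 in the diabetic arrays. It was lower in the HCDDP array of each number, by −0.29, −0.12 and −0.23, and the log2 difference was −0.21 (standard error 0.22, exact permutation p = 0.5). Without HCDDP array 3 the Nefh difference was −0.04, and without diabetic array 1 it was −0.10, while leaving out diabetic array 3 gave −0.38.

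Opn4, whose melanopsin cells set the daily clock and the pupil by light, was at 6.13, 6.33 and 5.78 in the HCDDP arrays and at 6.68, 6.30 and 6.01 in the diabetic arrays. Diabetic array 1 stood highest and HCDDP array 3 lowest, and the other 4 lay between 6.01 and 6.33 in no order by group. The log2 difference was −0.25 with a standard error of 0.23 and a 95% interval from −0.77 to 0.27 (adjusted p = 0.826 from limma, exact permutation p = 0.5). It was −0.08 without diabetic array 1 and −0.10 without HCDDP array 3, and leaving out diabetic array 3 gave −0.41. Of 15 genes that work with melanopsin or mark its cells, 1 passed the study's threshold, Grk2, a kinase that desensitizes receptors throughout the body, which was higher at 0.61 (standard error 0.16, adjusted p = 0.782 from limma). At this threshold 0.925% of all genes were higher. Grk2 was at 7.83, 7.81 and 7.84 in the HCDDP arrays and at 7.33, 7.00 and 7.31 in the diabetic arrays, without overlap. Genes closer to the melanopsin cascade did not pass with all 6 arrays: the G protein gene Gna11 had a difference of 0.53, Gnaq had 0.18, the phospholipase gene Plcb4 had −0.53 and the channel gene Trpc7 had −0.48. The median over the 15 was 0.05, with 8 of them above 0 and 7 below. The count depended on the arrays: 0 of the 15 passed without diabetic array 2, Gna11 and Grk2 passed without diabetic array 1, and 4 passed without diabetic array 3, namely Gna11, Grk2, Plcb4 and Trpc7. In that last case 10.9% of all genes passed. Gna11 and Grk2 were not part of the 10 genes, and both are used by many retinal cells.

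Further genes of ganglion cells, among them transcription factors, neuropeptides and receptors, had lower values in the HCDDP group more often than higher ones. Of 30 listed, 29 were measured, with 22 below 0, 7 above 0 and a median log2 difference of −0.26, where 51.6% of all genes lay below 0. The study's threshold was passed by 3, all lower, where 2.28% of all genes were lower at this threshold. Spp1 (osteopontin, a marker of alpha ganglion cells in the mouse that macrophages also make) was at 6.44, 6.40 and 6.56 in the HCDDP arrays and at 8.39, 6.67 and 8.06 in the diabetic arrays. Its groups did not overlap, yet diabetic array 2 lay near the HCDDP values, and the difference of −1.24 had a standard error of 0.39. Klf7, a transcription factor that favours axon growth, was at 7.40, 7.36 and 7.14 in the HCDDP arrays and at 8.55, 8.73 and 7.45 in the diabetic arrays, a difference of −0.94 (standard error 0.32). Cartpt, a neuropeptide precursor, was at 6.74, 7.10 and 6.75 against 7.81, 7.95 and 6.92, a difference of −0.69 (standard error 0.28), and its groups overlapped. In Klf7 and Cartpt, diabetic arrays 1 and 2 stood above all others and diabetic array 3 lay close to the HCDDP arrays. For all 3 genes limma gave an adjusted p of 0.782. By the methods' t-test 0 of the 29 passed. The count was 1 without HCDDP array 3 or diabetic array 1, Spp1 in both cases, where 1.78% and 1.99% of all genes passed. It was 10 without diabetic array 3, where 10.9% of all genes passed.

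**Figure D3:**
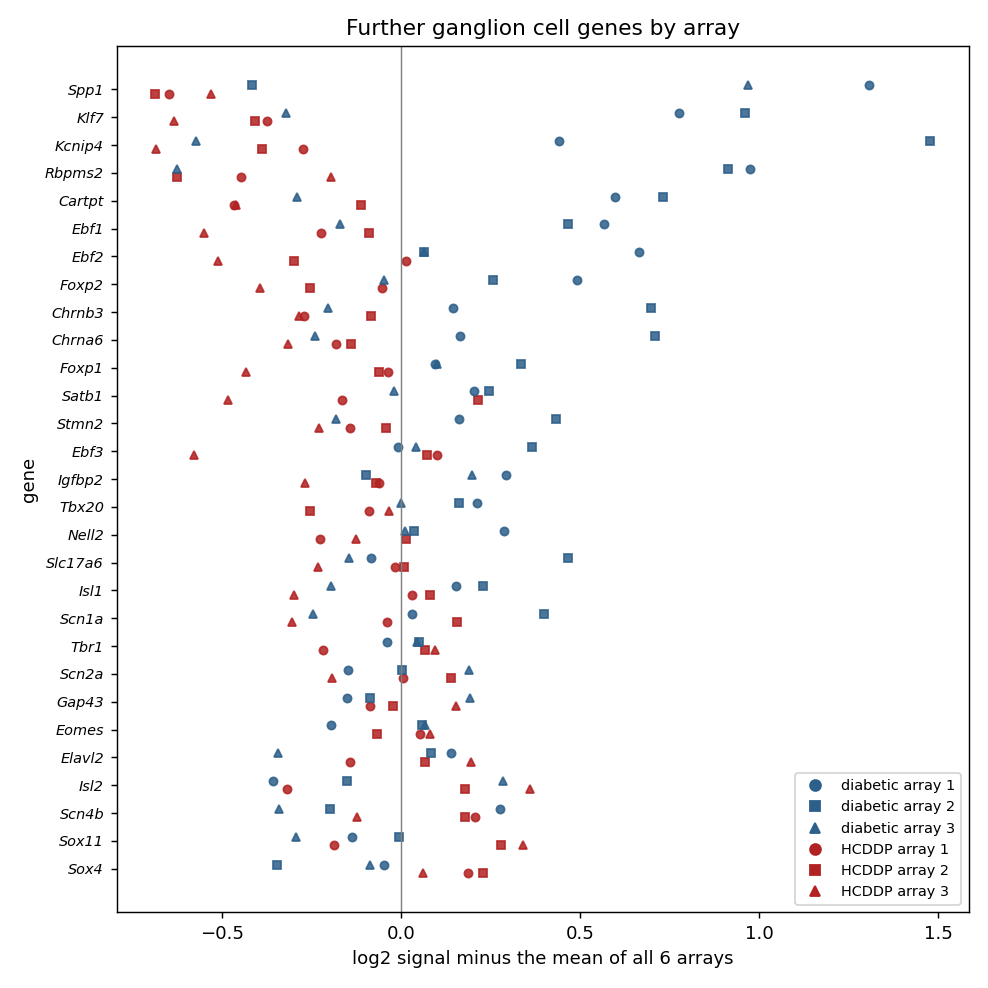
Log2 signal of 29 further ganglion cell genes in each array, minus the mean of all 6 arrays for that gene (horizontal axis), with genes ordered by the group difference (vertical axis), diabetic arrays in blue and HCDDP arrays in red. Diabetic arrays 1 and 2 stand to the right for the upper genes, while diabetic array 3 mostly lies among the HCDDP arrays.

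Other named ganglion cell genes did not pass. Ebf1, Foxp2 and Ebf2, transcription factors of ganglion cell subtypes, had differences of −0.58, −0.47 and −0.53, with unadjusted p of 0.0392, 0.0408 and 0.0467 by limma and fold changes below 1.5. Rbpms2, the close relative of Rbpms, was at 6.50, 6.33 and 6.76 in the HCDDP arrays and at 7.93, 7.87 and 6.33 in the diabetic arrays. As in Klf7, diabetic arrays 1 and 2 stood apart, and diabetic array 3 was level with the lowest HCDDP array. Slc17a6, the vesicular glutamate transporter through which ganglion cells signal to the brain, had a difference of −0.16 (standard error 0.21). Sox4 and Sox11, factors of developing ganglion cells, had 0.32 and 0.29.

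Among 27 measured genes listed for the cytoskeleton and transport of the axon, 0 passed the study's threshold, against 3.2% of all genes. Their median log2 difference was −0.04. Ina, the intermediate filament that assembles with the neurofilament subunits in the central nervous system, was at 7.27, 7.44 and 7.04 in the HCDDP arrays and at 7.77, 7.85 and 6.88 in the diabetic arrays. Diabetic array 3 was the lowest of the 6, and the difference was −0.25 (standard error 0.27). The largest differences toward lower values were those of Map2, a dendritic microtubule protein, at −0.51, and Uchl1, a neuronal ubiquitin hydrolase, at −0.49. Uchl1 had an unadjusted p of 0.0392 by limma and a fold change below 1.5. Map2 passed without HCDDP array 2, where 3.23% of all genes passed. Map2 and Uchl1 both passed without diabetic array 3, where 10.9% of all genes did. Kif5a, the motor that carries neurofilaments along the axon, had −0.20, and Mapt, which encodes tau, had −0.0038 (standard error 0.18). Among 19 measured genes listed for the response of ganglion cells to injury, 0 passed, against 3.2% of all genes, with a median of −0.07. That each of them is raised by damage to the axon was not tested. With the replicate number as a block the count was 1, Sprr1a, a protein of the cornified envelope that injured neurons also make. It was 2 without HCDDP array 1 (Sprr1a and Csf1) and 3 without diabetic array 3 (Sprr1a, Csf1 and Klf6). Of all genes, 3.69% and 10.9% passed in these cases. Atf3 had 0.30, Jun 0.23 and Sox11 0.29, while Gal had −0.38 and Sprr1a had −0.96 with a standard error of 0.53. Sprr1a was at 9.02 in HCDDP array 1 and at 7.93 in diabetic array 3, and the other arrays were at 7.81 and 7.78 in the HCDDP group and at 9.90 and 9.63 in the diabetic group.

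The mean deviation of the 10 genes was highest in diabetic array 1 or 2, as it was for amacrine, bipolar, rod, cone and Müller cell markers, while that of horizontal cell markers was highest in HCDDP array 3. Diabetic array 1 or 2 was the highest of the 6 arrays for 7 of the 10 genes and for 21 of the 29 further genes, or 70% and 72.4%, against 41.3% of all genes. HCDDP array 3 was the lowest for 6 of the 10 genes and for 23.4% of all genes. The mean deviation of the 10 genes from their 6-array mean was 0.17, 0.14 and −0.07 in the diabetic arrays and −0.10, 0.03 and −0.17 in the HCDDP arrays. HCDDP array 2 lay above diabetic array 3 on this measure. The width of the signal distribution over all genes, taken between its 10th and 90th percentiles, was 5.19 and 5.16 in diabetic arrays 1 and 2, and it was 4.45 in diabetic array 3 and 4.48 in HCDDP array 3, so the arrays with the lower values of the 10 genes included those with the narrower range. With each array scaled to the same range, the median difference of the 10 genes was −0.14, with 9 of 10 below 0. After quantile normalization, which gives the arrays the same distribution, it was −0.13, with 7 of 10 below 0.

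**Figure D4:**
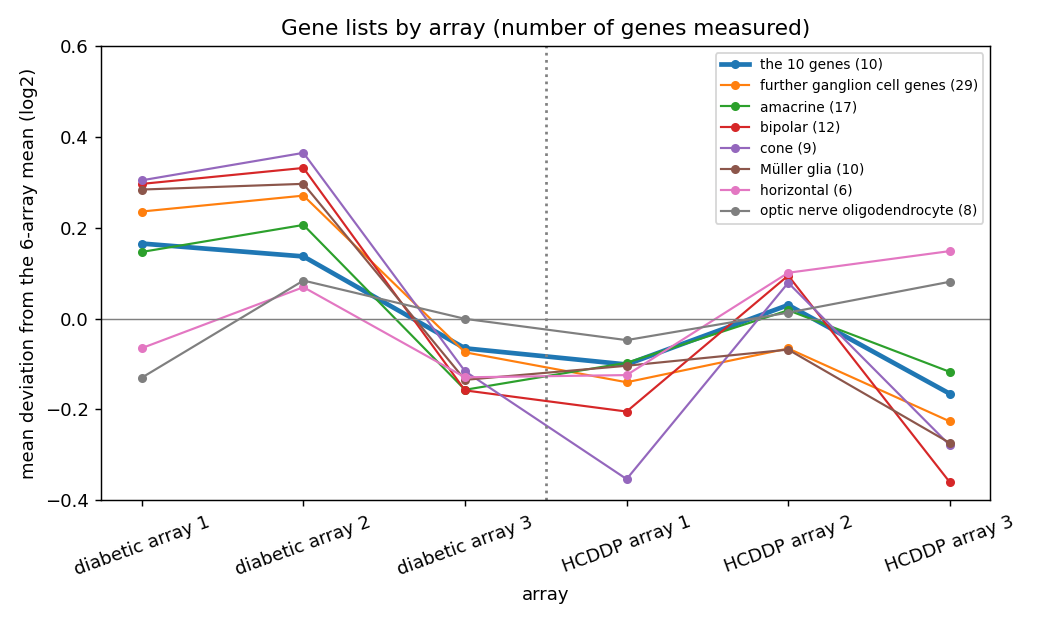
Mean deviation of each gene list from its 6-array mean (log2, vertical axis) in each of the 6 arrays (horizontal axis), with the 10 genes as the thick blue line and the number of genes measured in brackets. The lists of ganglion, amacrine, bipolar, cone and Müller cells share high values in diabetic arrays 1 and 2, and the horizontal cells and optic nerve oligodendrocytes do not.

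Markers of other cells lay differently over the arrays from list to list. Of 17 amacrine markers 0 passed the study's threshold, with a median difference of −0.14 and a summed linear signal of 3787 to 4349 in the HCDDP arrays and 4088 to 5299 in the diabetic arrays. Of 12 bipolar markers, Pcp2 (−1.18) and Otx2 (−0.66) passed, both lower, with a summed signal of 3153 to 4035 against 3439 to 5990. Of 6 horizontal cell markers 0 passed, 5 were above 0 and the median was 0.10, with sums of 451 to 599 against 475 to 613. Their mean deviation was 0.15 in HCDDP array 3 and −0.06 in diabetic array 1, where the 10 genes had −0.17 and 0.17. Of 9 cone markers 0 passed and all 9 were below 0, with a median of −0.39. Of 10 Müller glia markers, Clu passed at −0.96, and the summed signal was 8423 to 10283 against 10276 to 15258. The myelin genes of the optic nerve gave 0 of 8, a median of 0.02 and sums of 716 to 734 against 687 to 771, and the arrays of the groups overlapped for all 8. Of 7 markers of peripheral nerve and its Schwann cells, Pmp22 (−0.74) and Ngfr (−0.61) passed, both lower. The smallest differences of this list were −0.08 for Sox10 and −0.04 for Prx. All 7 were below 0, with a median of −0.18 and sums of 1013 to 1311 against 1371 to 1998. Among markers from outside the neural retina, 7 of 10 for enterocytes and 4 of 10 for cornea and sclera were lower at the study's threshold. So were 2 of 7 for liver. At this threshold 2.28% of all genes were lower. By the methods' t-test 0 of the 7 liver markers passed, where 1.08% of all genes did. Of 4 lens and 8 retinal pigment epithelium markers 0 passed. The cornea and sclera markers had mean deviations of 0.14, 0.28 and 0.29 in the diabetic arrays. The part of any of these cells in the values of the 10 genes was not tested. The tissue was labelled retina, and its rod markers were strong in every array, with Gnat1 at 12.7 to 12.9 in the HCDDP arrays and 12.9 to 13.3 in the diabetic arrays, and Sag at 12.2 to 12.4 and 12.5 to 12.9.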

How the data were processed

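The authors scanned Affymetrix Rat Gene 2.0 ST arrays of retinal RNA and analysed them with Expression Console Software. The deposited table holds a log2 signal for each of 36685 probe rows on each array. For background, normalization and summarisation the sources used here give no method. Signals were tested as deposited. Of the rows, 18511 had 1 gene symbol in the platform annotation, 575 several and 17599 none. The row with the highest mean was kept for each gene, leaving 18166 genes, with no filter on low signals. Precision is limited by having 3 arrays a group.

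Groups and replicate numbers came from the labels, and diet, streptozotocin and dose from the paper's methods. Groups were compared with limma 3.58.1 (R 4.3.3), lmFit and eBayes, with Benjamini-Hochberg adjustment over all genes. The exact two-sided permutation test used all 20 assignments of the arrays, and its smallest p is 0.1. The functions were tested on simulated data. After subtraction of group means, the HCDDP and diabetic arrays that share a number had correlations of 0.274, 0.292 and 0.445 over all genes. Neither the labels nor the methods state a pairing, and correlations of arrays with unlike numbers are not given here. Whether the numbers pair the arrays is therefore not settled. The main tests took no account of the numbers, and the fit with the number as a block was an alternative. The members and lists were chosen with earlier results of these data known. All members are named. Of a list, genes past the threshold, up to 4 with the smallest p and, for another cell type, up to 3 with the highest signal could be named. Gnaq, Trpc7, Ina, Kif5a, Mapt, Atf3, Jun, Sox4, Sox11, Slc17a6, Foxp2, Ebf2 and Rbpms2 are named outside this rule, after their values were seen. So are Cd3d, Sox10 and Prx. Summed linear signals add up the antilogs of the log2 signals. Figures were made in matplotlib 3.10.9. Array weights came from limma, with statmod 1.5.0 loaded beside it.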

Additional observations from a re-analysis of the deposited data

How the results depend on the processing

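None of the 10 genes passed the study's threshold, and none passed an adjusted p under 0.05, under any of the 19 alternatives. These were the methods' t-test, trend and robust moderation, array weights, quantile normalization, median centring, an equal signal range, genes above the median signal (which held 6 of the 10), all probe rows, the mean of a gene's rows, the replicate block, linear fold changes, a fold change over 2, each array left out and both arrays numbered 3 left out. The median difference of the 10 genes, −0.20, ran from −0.28 to −0.09 with 1 array left out. It was −0.09 without diabetic array 1 and −0.10 without HCDDP array 3. The directions of Rbpms, Pou4f1, Pou4f2, Pou4f3, Thy1, Nefl, Nefh and Opn4 held under every alternative that could change the difference. The methods' t-test, trend and robust moderation, genes above the median signal, all probe rows and the mean of a gene's rows left differences unchanged. So did the replicate block and a fold change over 2, and none of these could test a direction. A fold change over 2 could also add no call. After quantile normalization Sncg was at 0.017 and Nefm at 0.0064, and Nefm ran from −0.29 to 0.15 with 1 array left out. The cause was not tested. With 1 array left out, Rbpms ran from −0.50 to −0.20, Thy1 from −0.48 to −0.21, Pou4f2 from −0.38 to −0.05, Pou4f3 from 0.08 to 0.35 and Sncg from −0.18 to −0.0037. Without diabetic array 3, Rbpms and Thy1 had an unadjusted p of 0.0429 and 0.0209 by limma, when 17.9% of all genes had one under 0.05, and their fold changes stayed below 1.5, while without diabetic array 1 the unadjusted p was 0.390 and 0.315. With the replicate number as a block the unadjusted p was 0.0520 for Rbpms and 0.0674 for Thy1 (adjusted p = 0.387 and 0.407 from limma), and the block changed no call among the 10. For the 29 further ganglion cell genes the count of 3 became 7 with array weights and without both arrays numbered 3, and 1 at a fold change over 2. For the 15 melanopsin genes the count of 1 became 4 with array weights and without both arrays numbered 3, 2 after quantile normalization and with an equal signal range, 0 at a fold change over 2, and ran from 0 to 4 with 1 array left out. For the 19 injury genes the count of 0 became 2 with array weights, 1 with the replicate block and 1 without both arrays numbered 3, and ran from 0 to 3 with 1 array left out. For the 27 axon genes it ran from 0 to 2 with 1 array left out. Array weights let 7.5% of all genes pass, the block 4.62% and leaving out both arrays numbered 3 8.16%.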
